A study of Mus musculus with 24 samples.

Results

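The genes described here are 8 interferon regulatory factor (IRF) genes, Irf1, Irf2, Irf3, Irf4, Irf5, Irf7, Irf8 and Irf9, taken by symbol from the deposited expression tables. All 8 were found among the 23234 genes of each table, and all 8 passed the filter on low values in both B cell populations. The study compared primary spleen B cells of C57BL/6 mice labelled as Tet2/Tet3-deficient (DKO; the CD93+ libraries are labelled Tet KO) with control B cells (CTL). Tet2 and Tet3 are dioxygenases that oxidise 5-methylcytosine in DNA. RNA-seq libraries of 4 groups were used, with 3 libraries each: DKO CD93- B cells, CTL CD93- B cells, DKO CD93+ B cells and CTL CD93+ B cells. CD93 marks immature and transitional B cells and some plasma cells, so the CD93- gate holds mostly mature B cells. The labels used here give neither the age of the mice nor the Cre line or promoter behind the deletion. They also do not say whether replicates came from separate animals. The p-values below therefore rest only on the spread between these libraries, which the limma fits share in part or in whole over genes.

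IRFs are transcription factors that share a DNA-binding domain and recognise GAAA-containing elements in the promoters of interferon genes and interferon-stimulated genes. Irf3 and Irf7 are activated downstream of nucleic acid sensors and switch on type I interferon genes, Irf9 is part of the ISGF3 complex that answers type I interferon, and Irf1 is induced by interferon gamma and drives antigen presentation genes. In B cells, Irf4 and Irf8 bind with Ets factors and act in opposition at several steps of B cell differentiation, with high Irf4 needed for plasma cells.

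Levels are in FPKM, fragments per kilobase of transcript scaled to the mapped fragments of the library. Cd93 was between 28.0 and 59.9 FPKM in the CD93+ libraries and between 3.32 and 4.65 FPKM in the CD93- libraries. The summed FPKM of a library ranged from 342368 to 463987 in the CD93- table, lowest in CTL replicate 1. The upper quartile of the tested genes there was 25.1 to 26.1 FPKM in DKO libraries, above the 18.7, 24.3 and 23.0 FPKM of the CTL libraries. In the CD93+ table the summed FPKM ranged from 523898 to 597968 in 5 libraries and was 309359 in DKO replicate 3. The upper quartile was 15.4 FPKM in that replicate against 25.8 to 30.0 FPKM in the other 5. For that reason the IRF changes and the list counts are also given after rescaling every library to a common upper quartile, and those of CD93+ cells also without that library. The levels of Tet2 and Tet3 do not check the genotype labels, since FPKM is given per gene, with no value for a deleted part alone. Tet2 was not called in either population, and the cause was not tested. In CD93- libraries Tet2 had 8.15 to 9.94 FPKM in DKO and 6.36 to 8.79 FPKM in CTL. In CD93+ libraries Tet2 had 1.80 to 3.55 FPKM in DKO and 3.10 to 3.47 FPKM in CTL. Tet3 was at 14.9 to 15.7 FPKM in DKO and 14.8 to 20.1 FPKM in CTL CD93- libraries, and at 3.84 to 9.92 FPKM in DKO and 12.1 to 14.1 FPKM in CTL CD93+ libraries. It was not called with the authors' scaling and was called lower in both populations after the upper quartile rescaling (log2 change -0.41, limma adjusted p = 0.00180, in CD93- cells and -0.66, limma adjusted p = 0.0150, in CD93+ cells). All 6 CD93- libraries had Ddx3y, a Y-linked gene, at 23.0 to 30.7 FPKM. In the CD93+ table the 3 DKO libraries and CTL replicate 3 had Xist, the RNA of the inactive X, at 19.7 to 59.4 FPKM, and CTL replicates 1 and 2 had Ddx3y at 10.6 to 11.9 FPKM, so sex and genotype are partly confounded there.

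In CD93- cells Irf1, Irf7, Irf8, Irf9 and Irf2 were higher in DKO than in CTL libraries, and Irf3, Irf4 and Irf5 did not pass the test. A gene was called when its adjusted p was under 0.05 in limma, fitted on log2(FPKM + 1) over 10960 genes with Benjamini-Hochberg adjustment. The log2 changes below are on that scale, which understates changes of genes at low levels. Of the 8 IRF genes, 5 were called higher and 0 lower, where 18.7% of all tested genes were called higher and 2.79% lower. The median log2 change of the 8 was 0.49, beside 0.11 over all tested genes. The DKO and CTL ranges did not overlap for the same 5 genes, and 31.5% of all tested genes were higher and 7.43% lower without overlap.

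**Figure D1:**
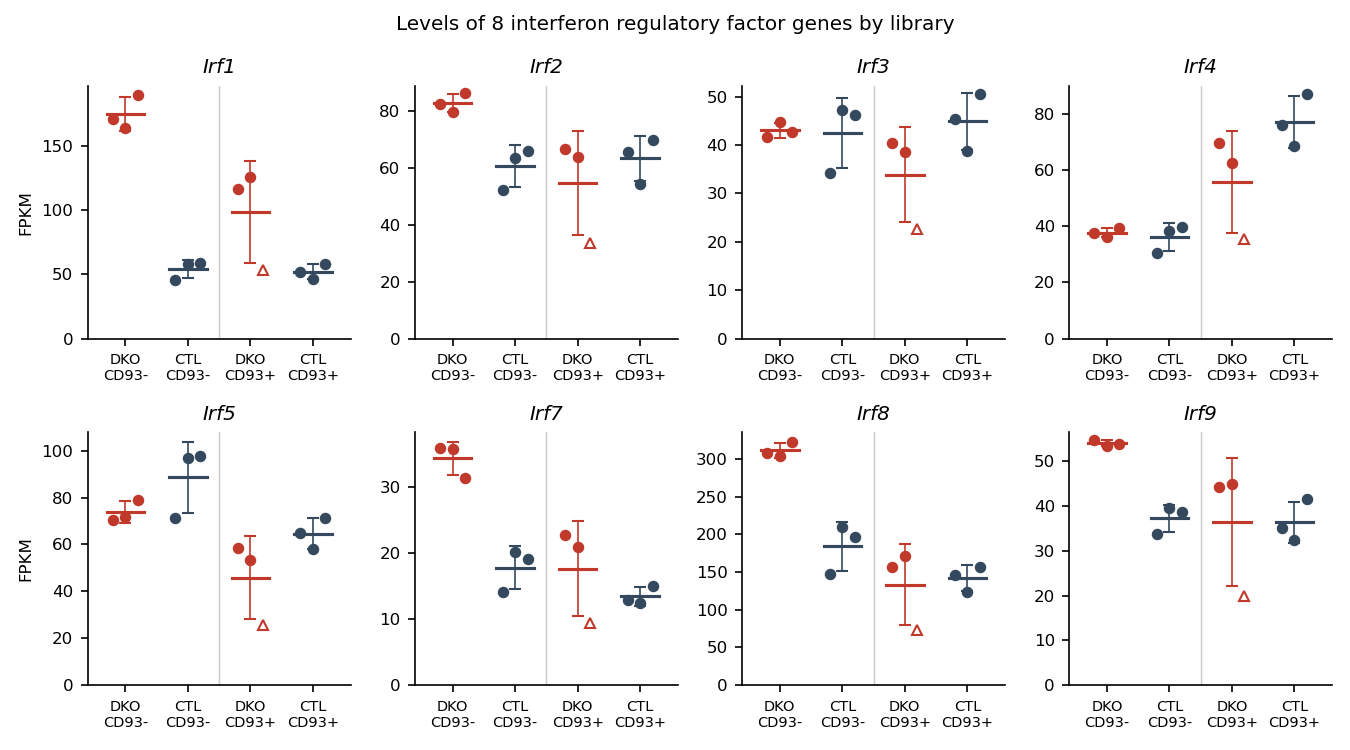
FPKM of each IRF gene by library in DKO and CTL B cells, as scaled by the authors; points are libraries, horizontal lines are means and bars are 1 SD (n = 3 per group), with DKO CD93+ replicate 3 drawn as an open triangle. The 3 DKO CD93- libraries sit above all 3 CTL CD93- libraries for Irf1, Irf2, Irf7, Irf8 and Irf9, and the open triangle is the lowest DKO CD93+ point in all 8 panels.

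Irf1 was the IRF gene with the largest change in CD93- cells. It had 170, 164 and 189 FPKM in the DKO libraries, against 45.9, 58.1 and 58.6 FPKM in the CTL libraries. The lowest DKO library stood well above the highest CTL library, and the ratio of the means was 3.22. The log2 change was 1.68 ± 0.14 (SE; limma adjusted p = 5.40e-06), and it was 1.45 after upper quartile rescaling. Irf2, which occupies many of the same elements and mostly represses there, had 82.5, 79.8 and 86.1 FPKM in the DKO libraries, against 52.0, 63.6 and 65.9 FPKM in the CTL libraries. These ranges did not overlap, but the log2 change of 0.45 ± 0.13 was close to the threshold (limma adjusted p = 0.0285). The call was lost without any filter on low values (adjusted p = 0.0539) and when any DKO library was left out (log2 change 0.42 to 0.48, adjusted p = 0.0913 to 0.140), and after upper quartile rescaling the change was 0.23 and passed (adjusted p = 0.00939).

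Of the IRFs that switch on interferon genes, Irf7 rose and Irf3 did not pass the test. Irf7, itself interferon-inducible, had 36.0, 35.8 and 31.5 FPKM in the DKO libraries, against 14.1, 20.2 and 19.2 FPKM in the CTL libraries. All DKO values lay above all CTL values, with a log2 change of 0.93 ± 0.15 (limma adjusted p = 0.000954), or 0.71 after upper quartile rescaling. Irf3, a constitutively made factor, had 41.8, 44.7 and 42.7 FPKM in the DKO libraries, against 34.2, 47.2 and 46.2 FPKM in the CTL libraries, with a log2 change of 0.03 (95% confidence interval -0.28 to 0.35). The ranges overlapped, with CTL replicate 1 below the other 5 libraries. After upper quartile rescaling the Irf3 change was -0.19 and was called lower (adjusted p = 0.0303), so its direction turned with the scaling. Irf5, which acts downstream of Toll-like receptors and MyD88, had 70.6, 71.6 and 79.0 FPKM in the DKO libraries, against 71.1, 97.0 and 97.9 FPKM in the CTL libraries. Its log2 change of -0.25 did not pass (limma adjusted p = 0.271), and after rescaling it was -0.47 and passed (adjusted p = 0.000984). Without CTL replicate 1, on the authors' scale, the Irf5 change was -0.40 and also passed (limma adjusted p = 0.00896).

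Irf9, the DNA-contacting subunit of ISGF3, had 54.7, 53.5 and 53.9 FPKM in the DKO libraries, against 33.8, 39.5 and 38.6 FPKM in the CTL libraries. The 3 DKO values were close to each other and above all CTL values, with a log2 change of 0.53 ± 0.12 (limma adjusted p = 0.00896). The change was 0.31 after rescaling, and without DKO replicate 3 it was 0.53 on the authors' scale and narrowly missed the threshold (adjusted p = 0.0522).

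Of the lymphoid pair, Irf8 rose and Irf4 did not pass the test. Irf8 had 307, 304 and 322 FPKM in the DKO libraries, against 148, 209 and 196 FPKM in the CTL libraries. The groups did not overlap, and the log2 change was 0.77 ± 0.15 (limma adjusted p = 0.00327), or 0.54 after upper quartile rescaling. Irf4 had 37.7, 36.0 and 39.4 FPKM in the DKO libraries, against 30.4, 38.2 and 39.7 FPKM in the CTL libraries. The Irf4 ranges overlapped, with a log2 change of 0.07 (95% confidence interval -0.22 to 0.37), and after rescaling it was -0.15 (adjusted p = 0.0626). After upper quartile rescaling 5 IRF genes were called higher and 2 lower, where 17.1% of all tested genes were higher and 23.8% lower. The ranges were then apart for 5 IRF genes that were higher and 3 that were lower, where 21.4% of all tested genes were higher and 33.3% lower without overlap. The median log2 change was then 0.27 over the 8 IRF genes and -0.08 over all tested genes. Irf1, Irf7 and Irf8 were called under all 16 alternatives tried.

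**Figure D2:**
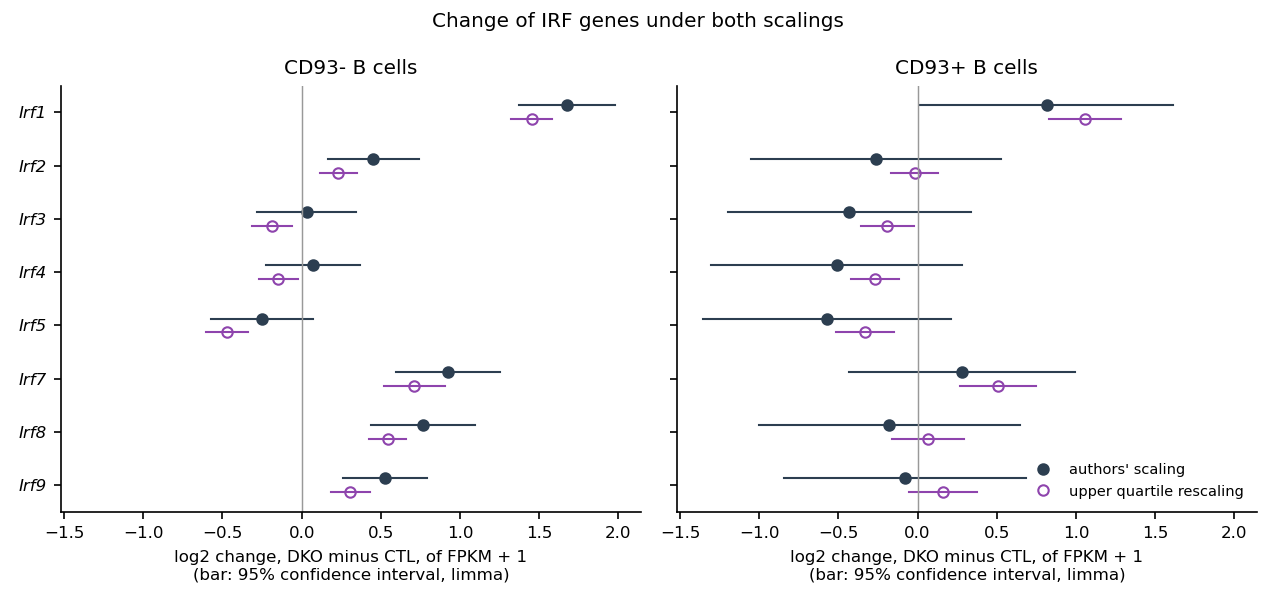
log2 change of FPKM + 1, DKO minus CTL, of each IRF gene in CD93- and CD93+ B cells; filled points use the authors' scaling, open points use upper quartile rescaling, and bars are 95% confidence intervals from limma (n = 3 libraries per group). In CD93- cells the intervals of Irf1, Irf2, Irf7, Irf8 and Irf9 lie above 0 under both scalings. In CD93+ cells the filled intervals are wide and the open intervals of Irf1 and Irf7 lie above 0. The open intervals of Irf3, Irf4 and Irf5 lie below 0 in both populations.

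The order of the levels differed between the genotypes. In DKO CD93- cells the order was Irf8, Irf1, Irf2, Irf5, Irf9, Irf3, Irf4 and Irf7, and no neighbours overlapped in range. In CTL CD93- cells Irf8 was also the highest, followed by Irf5, and Irf7 was the lowest, while the neighbours among Irf2, Irf1, Irf3, Irf9 and Irf4 overlapped in range. Within all 3 of these CTL libraries Irf2 was above Irf1, Irf1 above Irf3 and Irf3 above Irf9, and Irf9 was above Irf4 in 2. As a share of the summed FPKM of the 8 genes within a library, Irf1 made up 21.5% ± 0.848 in DKO and 10.4% ± 0.277 in CTL CD93- cells (SD, n = 3 each). The share of Irf5 was 9.08% ± 0.271 in DKO and 17.0% ± 0.414 in CTL CD93- cells. The summed level of the 8 genes, before rescaling, was 789 to 844 FPKM in DKO and 429 to 573 FPKM in CTL CD93- libraries. The 429 FPKM was in CTL replicate 1, the library with the lowest upper quartile of its table.

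The promoters of the 8 IRF genes were searched for elements through which IRFs and STATs act. Annotated starts gave 11 windows of 300 bases for the 8 genes, each with 250 bases before and 50 after the start, from RefSeq on build GRCm38.p6. The interferon-stimulated response element (ISRE) core was searched as GAAANNGAA, the interferon gamma-activated site (GAS), bound by STAT dimers, as TTCNNNGAA, and the Ets-IRF composite element (EICE), bound by Irf4 or Irf8 with PU.1, as GGAANNGAA, on both strands. Of 32851 RefSeq promoter windows of that length, 8.56% held the ISRE core, 8.30% the GAS and 8.24% the EICE. Among the IRF genes 3 held a GAS (Irf1, Irf2 and Irf8), in 3 of the 11 windows. Only Irf2 held the ISRE core and the EICE, in 1 window, where they overlap. The windows of Irf3, Irf4, Irf5, Irf7 and Irf9 held no match to these letters. The 250 bases before the start are shown for the 3 genes with a match, with each match in capitals. These lie at chr11:53769764-53770013, plus strand, for the first of 2 Irf1 starts, at chr8:46739495-46739744, plus strand, for Irf2, and at chr8:120736108-120736357, plus strand, for the first of 2 Irf8 starts. A match is a description of the letters and does not show binding.
Irf1: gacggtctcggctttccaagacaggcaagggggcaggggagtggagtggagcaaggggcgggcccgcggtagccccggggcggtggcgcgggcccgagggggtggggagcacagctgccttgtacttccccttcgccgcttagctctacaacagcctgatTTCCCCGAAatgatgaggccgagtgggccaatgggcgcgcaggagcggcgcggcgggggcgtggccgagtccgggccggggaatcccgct
Irf2: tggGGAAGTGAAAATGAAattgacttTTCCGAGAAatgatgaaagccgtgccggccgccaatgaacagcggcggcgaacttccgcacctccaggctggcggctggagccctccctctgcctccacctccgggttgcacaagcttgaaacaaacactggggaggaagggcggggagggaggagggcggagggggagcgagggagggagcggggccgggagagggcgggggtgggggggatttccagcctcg
Irf8: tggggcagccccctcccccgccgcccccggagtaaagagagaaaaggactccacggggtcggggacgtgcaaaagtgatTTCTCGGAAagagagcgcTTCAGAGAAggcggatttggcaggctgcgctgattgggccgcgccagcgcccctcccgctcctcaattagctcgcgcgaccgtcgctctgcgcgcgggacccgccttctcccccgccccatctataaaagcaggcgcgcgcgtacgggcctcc

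Counted from the annotated start, the Irf1 GAS begins at position -90. In the Irf2 promoter the EICE begins at -247, the ISRE core at -241 and the GAS at -224. The Irf8 promoter holds a pair of GAS matches that begin at -171 and -153. CpG dinucleotides, the main sites of the 5-methylcytosine that TET enzymes oxidise, numbered 1 to 43 in the IRF windows with a median of 18, beside a median of 7 over all windows. No methylation data were analysed here.

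**Figure D3:**
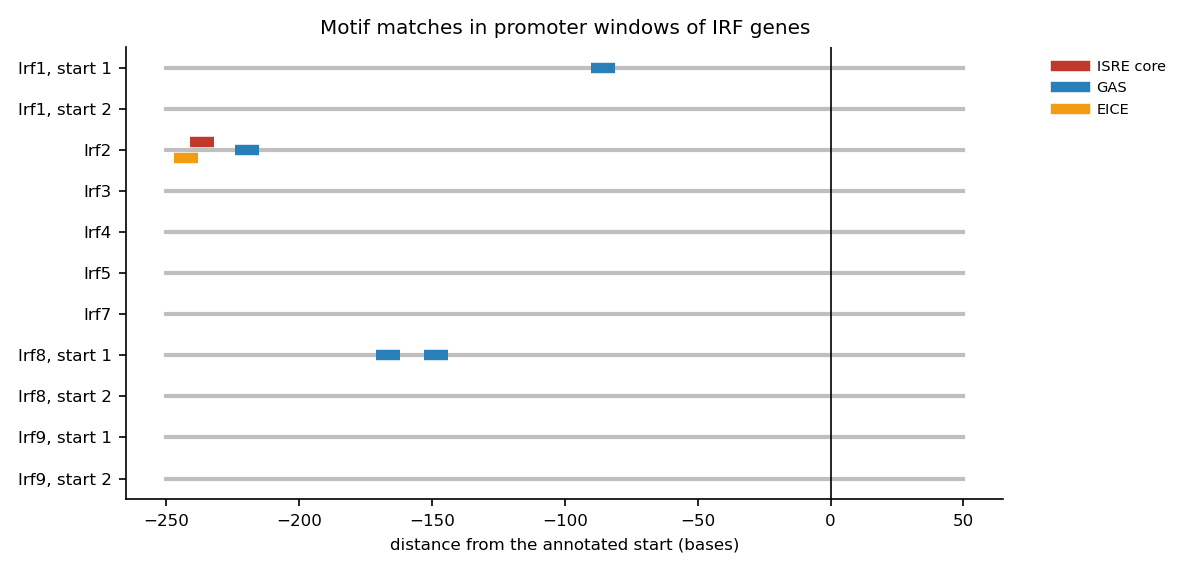
Matches to the ISRE core, GAS and EICE (coloured bars) in the RefSeq promoter windows of the 8 IRF genes, by distance in bases from the annotated start (vertical line); genes with 2 annotated starts have 2 rows. Matches fall in 3 of the 11 windows, those of Irf1, Irf2 and Irf8.

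In CD93+ cells no IRF gene was called with the authors' scaling, and Irf1 and Irf7 were higher after rescaling and without the low-scale library. With the authors' scaling limma called 0 of the 8 IRF genes over 11250 tested genes, with 1, Irf1, at an unadjusted p under 0.05, where 1.67% of all tested genes were called higher and 1.54% lower. The ranges overlapped for all 8, where 2.94% of all tested genes were higher and 19.0% lower without overlap. After upper quartile rescaling 2 IRF genes were called higher and 2 lower, where 11.4% of all tested genes were called higher and 9.34% lower. The ranges were apart for 2 IRF genes that were higher and 3 that were lower, where 20.9% of all tested genes were higher and 22.0% lower without overlap. The median log2 change of the 8 was -0.22 with the authors' scaling, the same as over all tested genes to 2 decimals, and after rescaling it was 0.02, beside -0.01 over all tested genes.

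Irf1 had 116, 126 and 53.1 FPKM in the DKO CD93+ libraries, against 52.0, 46.2 and 58.0 FPKM in the CTL CD93+ libraries. DKO replicates 1 and 2 lay above all CTL libraries, and DKO replicate 3, the library with the low scale, lay within the CTL range. The log2 change was 0.81 ± 0.41 (limma adjusted p = 0.403). In this fit limma took the variance of every gene from the trend over all genes, so the SE is not the spread of Irf1 itself. After upper quartile rescaling the values were 103, 116 and 90.8 FPKM in DKO and 48.4, 47.1 and 50.8 FPKM in CTL libraries. These no longer overlapped, with a log2 change of 1.06 ± 0.10 (limma adjusted p = 0.00157). Without DKO replicate 3, on the authors' scale, the Irf1 change was 1.21 (adjusted p = 0.00329). With sex as a covariate the Irf1 change was 1.0 after upper quartile rescaling and 0.66 on the authors' scale. All 3 DKO libraries had Xist, so these 2 values set them against CTL replicate 3 alone, and no p-value is given.

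Irf7 had 22.7, 21.0 and 9.36 FPKM in the DKO CD93+ libraries, against 12.9, 12.4 and 15.1 FPKM in the CTL CD93+ libraries. Again DKO replicate 3 was the low value. The log2 change of 0.28 did not pass (limma adjusted p = 0.796), and after rescaling it was 0.51 and passed (adjusted p = 0.0186). Without DKO replicate 3 the Irf7 change was 0.66 (adjusted p = 0.0319). With sex as a covariate after rescaling, which rests on CTL replicate 3 alone, it was 0.45.

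Irf4, the IRF that plasma cells need, had 69.6, 62.4 and 35.2 FPKM in the DKO CD93+ libraries, against 75.9, 68.5 and 87.0 FPKM in the CTL CD93+ libraries. Its ranges overlapped before rescaling and not after it, where the values were 57.4 to 61.5 FPKM in DKO and 69.9 to 76.2 FPKM in CTL libraries (log2 change -0.27, limma adjusted p = 0.0294). Irf5 had 58.2, 53.5 and 25.5 FPKM in the DKO CD93+ libraries, against 64.9, 57.9 and 71.1 FPKM in the CTL CD93+ libraries. Rescaled, the Irf5 values were 43.6 to 51.5 FPKM in DKO and 59.1 to 62.3 FPKM in CTL libraries (log2 change -0.33, limma adjusted p = 0.0288). After rescaling without DKO replicate 3 neither passed, with log2 changes of -0.28 for Irf4 (adjusted p = 0.0660) and -0.26 for Irf5 (adjusted p = 0.0597). With sex as a covariate after rescaling, which rests on CTL replicate 3 alone, the log2 changes were -0.35 for Irf4 and -0.37 for Irf5.

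Irf2, Irf3, Irf8 and Irf9 were not called in CD93+ cells under either scaling. Irf8, which rose in DKO CD93- cells, had 156, 171 and 72.5 FPKM in the DKO CD93+ libraries, against 146, 124 and 157 FPKM in the CTL CD93+ libraries. The rescaled ranges also overlapped, with a log2 change of 0.07 (95% confidence interval -0.16 to 0.30). Irf9 had 44.3, 44.9 and 19.9 FPKM in the DKO CD93+ libraries, against 35.1, 32.4 and 41.5 FPKM in the CTL CD93+ libraries, with a rescaled log2 change of 0.16 (95% confidence interval -0.06 to 0.38). Irf2 had 66.5, 63.9 and 33.7 FPKM in DKO and 65.6, 54.4 and 70.0 FPKM in CTL CD93+ libraries, and its rescaled change was -0.02. Irf3 had 40.5, 38.5 and 22.6 FPKM in DKO and 45.5, 38.7 and 50.5 FPKM in CTL CD93+ libraries, and its rescaled change of -0.19 did not pass (limma adjusted p = 0.103). Without DKO replicate 3, on the authors' scale, the changes were 0.05 for Irf2, -0.17 for Irf3, 0.21 for Irf8 and 0.30 for Irf9, and none of the 4 passed.

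In CTL CD93+ cells Irf8 was the highest and Irf7 the lowest, with no overlap with their neighbours, and between them came Irf4, Irf5, Irf2, Irf1, Irf3 and Irf9, each overlapping the next in range. In DKO CD93+ cells the order by mean was Irf8, Irf1, Irf4, Irf2, Irf5, Irf9, Irf3 and Irf7, and all neighbours overlapped in range, with the low-scale library included. Within each of the 3 libraries of a group every gene was above the next in these orders, with these exceptions. Irf5 was above Irf2 in 2 CTL libraries, and Irf4 above Irf2 and Irf9 above Irf3 in 2 DKO libraries each. Within a library, the share of Irf1 in the summed FPKM of the 8 genes was 20.5% ± 1.07 in DKO and 10.5% ± 0.0911 in CTL CD93+ cells (SD, n = 3 each). The share of Irf4 was 11.9% ± 1.12 in DKO and 15.6% ± 0.323 in CTL CD93+ cells, and it was 4.65% ± 0.0778 in DKO and 6.93% ± 0.235 in CTL CD93- cells. The tables may have been scaled separately and the populations differ in the sexes of the mice, so levels were not compared between CD93+ and CD93- cells.

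The effect of the genotype was also compared between the populations. With the authors' scaling limma called 0 of the 8 IRF genes different, with 2 at an unadjusted p under 0.05, where 2.35% of 10446 genes were called. After upper quartile rescaling 1 was called, Irf8, where 7.69% of all tested genes were called. The Irf8 change in CD93+ cells minus that in CD93- cells was -0.48 ± 0.11 on the log2 scale (limma adjusted p = 0.0234). It was -0.39 and passed after rescaling without DKO CD93+ replicate 3 (adjusted p = 0.0297), and with the authors' scaling it was -0.95 ± 0.43 and did not pass (adjusted p = 0.392). The same difference for Irf1 was -0.40 after rescaling and did not pass (adjusted p = 0.0557). For Irf3 it was 0.00 after rescaling, with a 95% confidence interval from -0.20 to 0.19.

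Ratios of IRF genes within a library do not depend on how the library was scaled, and 4 ratios were compared in each population. All 8 comparisons gave DKO and CTL ranges that did not overlap. Each had an exact 2-sided permutation p of 0.1 (0.1 after adjustment over the 8). This is the smallest that 3 against 3 libraries can give, so none can pass 0.05. Ratios of other gene pairs were not computed, so no share stands beside this count. Of single genes after upper quartile rescaling, 54.7% in CD93- and 42.9% in CD93+ cells had ranges apart in either direction. The Irf1/Irf2 ratio was 2.07, 2.05 and 2.20 in DKO CD93- libraries, against 0.881, 0.913 and 0.889 in CTL CD93- libraries. It was 1.75, 1.97 and 1.58 in DKO CD93+ libraries, against 0.793, 0.849 and 0.829 in CTL CD93+ libraries. Irf1 was thus above Irf2 in every DKO library, replicate 3 included, and below it in every CTL library.

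The Irf4/Irf8 ratio was lower in DKO cells of both populations. It was 0.123, 0.118 and 0.122 in DKO CD93- libraries, against 0.206, 0.182 and 0.202 in CTL CD93- libraries. In CD93+ cells it was 0.445, 0.365 and 0.486 in DKO libraries, against 0.521, 0.554 and 0.556 in CTL libraries. The Irf7/Irf3 ratio was 0.861, 0.801 and 0.737 in DKO and 0.411, 0.427 and 0.415 in CTL CD93- libraries. In CD93+ cells it was 0.561, 0.544 and 0.414 in DKO and 0.284, 0.321 and 0.299 in CTL libraries. For Irf9/Irf3 the geometric mean in DKO over that in CTL was 1.42 in CD93- cells and 1.28 in CD93+ cells.

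**Figure D4:**
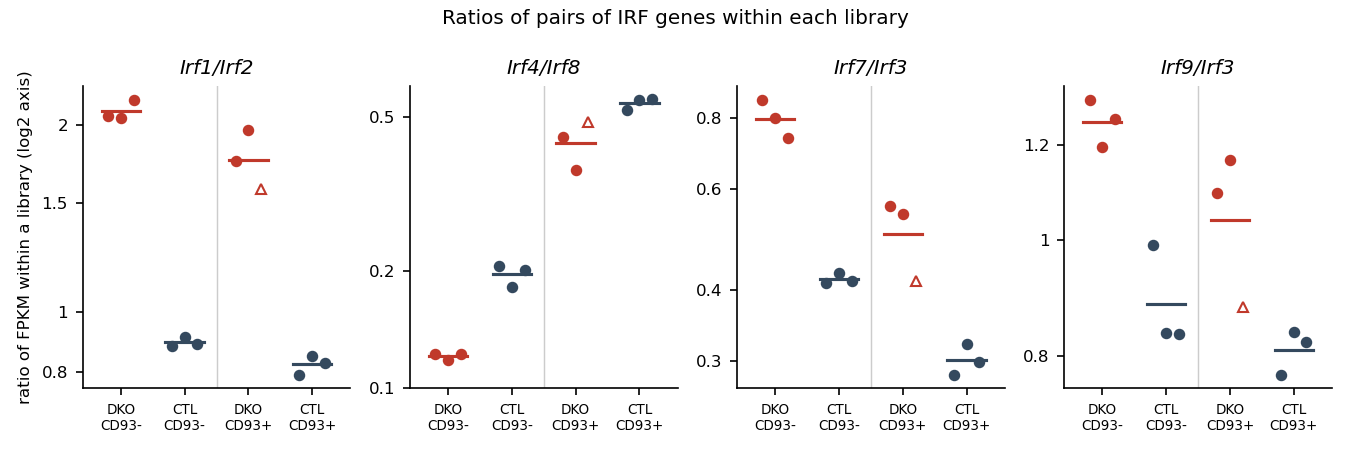
Ratio of the FPKM of a pair of IRF genes within each library, on log2 axes that do not start at 0; points are libraries, lines are geometric means and the open triangle is DKO CD93+ replicate 3. DKO and CTL libraries do not overlap in any of the 8 comparisons, with Irf1/Irf2 at 1.58 or above in DKO and at 0.913 or below in CTL libraries. Ratios of other gene pairs were not computed.

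The genes around the IRFs were described by lists, read against the shares of all tested genes called given above. Among 18 interferon genes in the CD93- table only Ifng passed the filter on low values and it was not called, while 8, Ifnb1 among them, were listed at 0 in all 6 libraries. Of 10 tested interferon receptor, JAK and ISGF3 genes, 2 were higher in DKO CD93- cells and 0 lower, with a median log2 change of -0.06. Stat2, a subunit of ISGF3, had 45.6, 44.6 and 44.4 FPKM in the DKO libraries, against 23.1, 30.6 and 27.9 FPKM in the CTL libraries (log2 change 0.71, limma adjusted p = 0.00246). After rescaling 2 were higher and 6 lower, among them Ifnar1, Ifngr1 and Jak1.

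Upstream of the IRFs, 7 of 22 tested sensor, adaptor and kinase genes were higher in DKO CD93- cells and 0 lower, and after rescaling 8 were higher and 7 lower. Zbp1, a sensor of Z-form nucleic acids, averaged 82.4 ± 0.363 FPKM in DKO and 19.2 ± 0.335 FPKM in CTL libraries. Ifih1, which encodes the RNA sensor MDA5, averaged 2.06 ± 0.294 FPKM in DKO and 0.539 ± 0.172 FPKM in CTL libraries. Dhx58, which encodes the RNA sensor LGP2, had a log2 change of 0.93, and Tlr7, an endosomal RNA receptor that signals to Irf5 and Irf7, had 0.88. Of 7 IRF cofactor and modifier genes, 1 was higher and 0 lower: Trim21, a ubiquitin ligase that acts on several IRFs (log2 change 0.56, limma adjusted p = 0.00716). After rescaling Trim21 and Irf2bp2, an Irf2-binding corepressor, were higher, and the genes of the histone acetyltransferases Crebbp and Ep300 were lower (log2 changes -0.47 and -0.42).

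Among genes for which Irf1 dependence is known in other settings, 13 of 16 tested were higher in DKO CD93- cells and 0 lower, with a median log2 change of 0.94, and after rescaling 13 were higher and 1 lower. Socs1, a feedback inhibitor of JAK signalling, had 43.5, 49.6 and 54.9 FPKM in the DKO libraries, against 3.90, 3.95 and 4.42 FPKM in the CTL libraries (log2 change 3.30, limma adjusted p = 1.17e-08). Gbp2, a guanylate-binding protein, averaged 44.8 ± 0.334 FPKM in DKO and 6.46 ± 1.47 FPKM in CTL libraries. The immunoproteasome subunit gene Psmb9 and the MHC class I transactivator gene Nlrc5 had log2 changes of 1.63 and 1.62. Among 23 tested target genes of ISGF3 and Irf7, 23 were higher and 0 lower, with a median log2 change of 0.98, and after rescaling 22 were higher. Their largest changes were in Ifi27l2a (1.71), Isg20 (1.66), Mx1 (1.59) and Usp18 (1.46), genes that type I interferon induces. The lists were chosen with results of these data known, so their counts are no independent evidence of a direction.

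Of 14 tested partner and B cell fate factors, 6 were higher in DKO CD93- cells and 1 lower, and after rescaling 6 were higher and 7 lower. Mef2b, a factor of germinal center B cells, averaged 16.9 ± 1.03 FPKM in DKO and 3.05 ± 0.340 FPKM in CTL libraries. Batf, which binds DNA with Irf4 or Irf8, had a log2 change of 1.44, and Prdm1, the plasma cell repressor Blimp-1, had 1.37.

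In CD93+ cells the same lists were read under both scalings and, after rescaling, without DKO replicate 3, where 8.48% of all tested genes were called higher and 5.99% lower. Of 18 tested genes of Irf1 dependence, 2 were higher with the authors' scaling, Gbp2 and Cxcl10, and 15 were higher and 0 lower after rescaling, with a median log2 change of 0.72, or 15 and 0 without that library. Gbp2 had 33.5, 40.8 and 17.2 FPKM in the DKO libraries, against 3.56, 3.50 and 5.42 FPKM in the CTL libraries, which did not overlap. Among 23 tested ISGF3 and Irf7 targets, 2 were higher and 1 lower with the authors' scaling, and 4 were higher and 0 lower after rescaling, or 3 and 0 without that library. Oasl2 was 1 of the 2 higher genes. With sex as a covariate on the authors' scale, which rests on CTL replicate 3 alone, its log2 change was -0.182. The gene called lower was Rsad2, an antiviral enzyme, with 25.9, 25.4 and 6.01 FPKM in the DKO libraries, against 102, 102 and 25.5 FPKM in the CTL libraries (log2 change -1.94, limma adjusted p = 4.93e-05). CTL replicate 3, the CTL library with Xist, lay within the DKO range of Rsad2, and the call was lost after rescaling (adjusted p = 0.0931).

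Zbp1 and Tlr7 were the 2 of 22 sensor, adaptor and kinase genes called in CD93+ cells with the authors' scaling, both higher, with log2 changes of 1.86 and 1.02. After rescaling 4 genes of this list were higher and 1 lower, or 2 and 0 without DKO replicate 3. Ifng was at 2.38, 3.76 and 0.915 FPKM in DKO and 0.448, 0.639 and 1.01 FPKM in CTL CD93+ libraries (log2 change 0.90, limma adjusted p = 0.0118), with overlapping ranges. Of the 14 partner and fate factors, 3 were higher and 0 lower: Xbp1, Prdm1 and Mef2b, with log2 changes of 1.90, 1.47 and 1.51. After rescaling 4 were higher and 7 lower, or 4 and 6 without DKO replicate 3. None of 10 receptor and ISGF3 genes and none of 7 cofactor genes was called by limma with the authors' scaling in CD93+ cells, with 1 gene of each list at an unadjusted p under 0.05. After rescaling 1 receptor and ISGF3 gene was higher and 2 were lower, or 1 and 1 without DKO replicate 3, and of the cofactor genes 0 were higher and 2 lower, or 0 and 1 without that library.

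**Figure D5:**
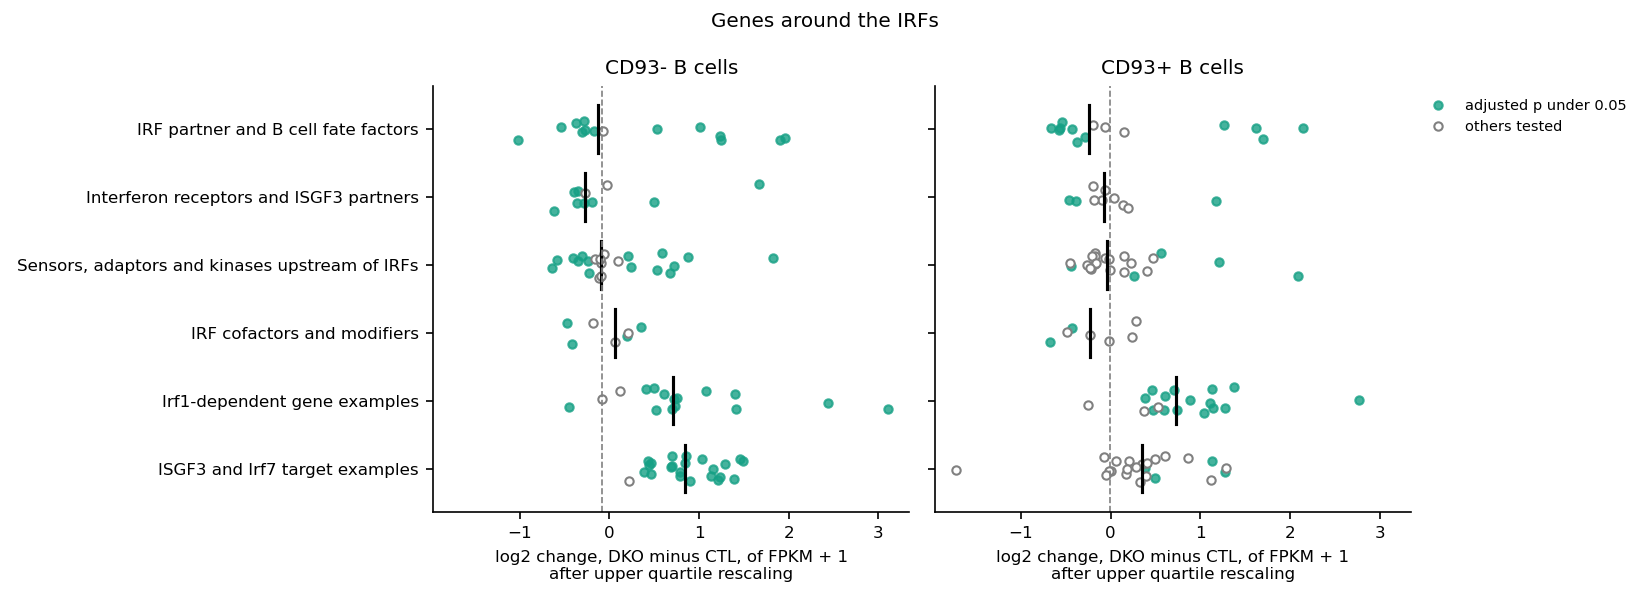
log2 change of FPKM + 1, DKO minus CTL, after upper quartile rescaling, of the tested genes of 6 lists in CD93- and CD93+ B cells; each point is a gene, filled where the limma adjusted p is under 0.05, black lines are list medians and the dashed line is the median of all tested genes. Genes of Irf1 dependence lie mostly to the right in both populations (medians 0.72 and 0.72), and ISGF3 and Irf7 targets have medians of 0.84 in CD93- cells and 0.35 in CD93+ cells.

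Markers of other cell types moved with the genotype, and their part in the IRF values was not tested. In bulk libraries, more or fewer cells of a type and more or less RNA per cell cannot be told apart. Of 7 tested plasma cell markers 6 were higher in DKO CD93- cells under both scalings, with summed levels of 324 to 359 FPKM in DKO and 57.3 to 81.1 FPKM in CTL libraries. In CD93+ cells 5 of 7 were higher under both scalings, also without DKO replicate 3, with sums of 868 to 1491 FPKM in DKO and 113 to 159 FPKM in CTL libraries. Igj, the joining chain of secreted antibodies, led both lists, with log2 changes of 4.63 in CD93- and 4.68 in CD93+ cells. Of 10 B cell markers 3 were lower in each population, Cr2 and Fcer2a among them in both. After rescaling 6 were lower in each population, or 5 in CD93+ cells without DKO replicate 3. The sums of the list were 3694 to 3875 FPKM in DKO and 3613 to 4504 FPKM in CTL CD93- libraries, and 1706 to 3573 FPKM in DKO and 3628 to 4837 FPKM in CTL CD93+ libraries.

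Plasmacytoid dendritic cells make much Irf7 and Irf8. Of 8 tested markers of these cells 1, Ccr9, was higher in DKO CD93- cells, with sums of 89.0 to 94.9 FPKM in DKO and 77.0 to 109 FPKM in CTL libraries, which overlapped. After rescaling 1 was higher and 4 were lower, among them Siglech, a surface receptor of these cells (log2 change -0.57, limma adjusted p = 0.00353). Of 7 conventional dendritic cell markers 2 were higher and 1 lower, or 2 and 2 after rescaling, with sums of 23.8 to 25.5 FPKM in DKO and 14.7 to 24.0 FPKM in CTL CD93- libraries. Of 5 tested macrophage markers 3 were higher under both scalings, with sums of 15.0 to 17.5 FPKM in DKO and 7.68 to 9.68 FPKM in CTL CD93- libraries. The sums include C1qa, C1qc, Csf1r and Vcam1, which did not pass the filter on low values. Each of these had a lower mean in DKO, with overlapping ranges. Their means were 0.196 to 0.785 FPKM in DKO and 0.544 to 1.17 FPKM in CTL CD93- libraries. Of 9 T cell markers 7 were higher, or 6 after rescaling, with sums of 38.1 to 40.8 FPKM in DKO and 15.0 to 26.7 FPKM in CTL CD93- libraries. Of 6 red cell markers 4 were higher, or 2 after rescaling, with sums of 170 to 198 FPKM in DKO and 42.3 to 60.4 FPKM in CTL CD93- libraries. None of 3 neutrophil markers was called by limma in CD93- cells under either scaling, with 1 at an unadjusted p under 0.05 on the authors' scale and 0 after rescaling, and sums of 3.05 to 13.1 FPKM in DKO and 2.04 to 8.93 FPKM in CTL libraries, and Retnlg was listed at 0 in all 6 libraries.

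In CD93+ cells none of 6 plasmacytoid dendritic cell markers, 4 conventional dendritic cell markers and 9 macrophage markers was called by limma with the authors' scaling, with 1, 1 and 3 at an unadjusted p under 0.05. After rescaling 2, 1 and 0 were higher and 0 of each lower, with 2 macrophage markers at an unadjusted p under 0.05, and the calls numbered the same without DKO replicate 3. The sums of the 3 lists were 22.5 to 42.1, 8.69 to 12.4 and 60.9 to 111 FPKM in DKO, against 29.3 to 36.4, 6.75 to 9.10 and 46.2 to 138 FPKM in CTL libraries. Of 9 T cell markers 1, Cd28, was higher, as after rescaling, and 5 were higher after rescaling without DKO replicate 3, with sums of 47.0 to 156 FPKM in DKO and 71.6 to 92.8 FPKM in CTL libraries. Of 8 red cell markers 7 were lower, with sums at 1.07% to 2.69% of all FPKM of a library in DKO and 2.66% to 10.8% in CTL libraries, and 0 were called by limma after rescaling, with 5 at an unadjusted p under 0.05, or 0 and 1 without DKO replicate 3. Of 8 neutrophil markers 2, Ltf and Retnlg, were lower, or 5 after rescaling and 4 after rescaling without DKO replicate 3, with sums of 451 to 1404 FPKM in DKO and 1621 to 2254 FPKM in CTL libraries.

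The genes with the pattern most like each IRF were found by the root mean square difference of log2(FPKM + 1), centred within each table, over 12 libraries and 9284 genes. This measure was used as a description without a test. Amigo2, a cell adhesion protein gene, and Irgm1, an interferon-inducible GTPase, were nearest to Irf1, at 0.09 and 0.11. Bcl3 and Usmg5 were nearest to Irf7 (0.08 each), Eif2a and Samhd1, a dNTP hydrolase that restricts viruses, to Irf8 (0.07 each), and Sla2 and Ppp1r14b to Irf9 (0.05 and 0.06). Ywhag and Ssrp1 were nearest to Irf2 and Slu7 and Capn7 to Irf3, all at 0.04. Mus81 and Glyr1 were nearest to Irf4, at 0.04 each, and Nedd9 and Atp2a3 to Irf5, at 0.06 each. The points of all genes share library and scale.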

How the data were processed

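RNA-seq libraries from sorted mouse spleen B cells were made from total RNA with a strand-specific kit, per the labels' protocols. Reads were processed with Bowtie2 2.1.0, TopHat2 2.0.8 and Cufflinks 2.1.1 against mm9, per the submitters' processing notes, which give no roles. The authors deposited FPKM values in 2 tables of 23234 genes, 1 for each population, with no counts, so depth is unknown and no counting interval is given. Of 24 labelled samples, 12 were used and 12 are not analysed here. The tables' headers also held 6 value columns that repeat other columns and were not used, and 25 names are dates in place of symbols.

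Genes that reached 1 FPKM in 3 or more libraries of a table were tested on log2(FPKM + 1) with limma 3.58.1 (trend, Benjamini-Hochberg) in R 4.3.3, within each table, with a contrast of contrasts for the difference. The fit was tested on simulated data. The IRF genes and gene lists were chosen with earlier results of these data known. Named beside the IRF genes, Tet2 and Tet3 are up to 4 called genes of each list with the largest change and the 2 nearest genes of each IRF, and other names were chosen after their values were seen. Adgre1, Spi1, Mb21d1 and Irf2bpl were not matched under those symbols. Results for a few genes are not reported here.

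Alternatives changed the pseudocount (0.1 or 5), the filter (none or 5 FPKM), the scaling (upper quartile or quantile) and the variance model (without trend, or with quality weights for samples), blocked on the replicate number, or omitted 1 library at a time. Chosen after seeing the data were the sex covariate, the block or the sex covariate with rescaling, and rescaling without DKO CD93+ replicate 3. The sex covariate sets the DKO CD93+ libraries against CTL replicate 3 alone, so only its log2 changes are given.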

Additional observations from a re-analysis of the deposited data

Results flagged for a closer look

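The Irf8 effect differed between the populations in a test of the difference itself after upper quartile rescaling. The log2 change of Irf8 in CD93+ cells minus that in CD93- cells was -0.48 (limma adjusted p = 0.0234), with 138, 157 and 124 rescaled FPKM in DKO and 136, 126 and 137 in CTL CD93+ libraries, and 291, 284 and 293 in DKO and 187, 205 and 203 in CTL CD93- libraries. The CD93+ groups overlapped, and all 3 DKO CD93- libraries were above all CTL CD93- libraries. The adjusted p ranged from 0.0128 to 0.809 over 23 alternatives, of which 3 passed. The sexes of the mice differ between the 2 tables, which may have been scaled separately, and the part of either in this difference was not tested. With 3 libraries a group, single outlying libraries were not tested for.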

How the results depend on the processing

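In CD93- cells the 2351 genes called became 4198 with quantile normalization, 3689 with the replicate block and rescaling, 4316 with sample quality weights, and 4478 after upper quartile rescaling. With a library left out they numbered 1430 to 3253, the lowest without DKO replicate 3 and the highest without CTL replicate 1. In CD93+ cells the 361 genes became 168 with the 5 FPKM filter, 16 without filter, 188 without trend, 2234 with quantile normalization, 237 with the replicate block, 898 with the block and rescaling, 2358 with weights, 127 with the sex covariate, 570 with it and rescaling, 2331 after rescaling, 1628 after rescaling without DKO replicate 3, and 163 to 675 with a library left out, the highest without DKO replicate 3. For the difference the 246 genes became 142 with the 5 FPKM filter, 100 without filter, 852 with quantile normalization, 401 with the block and rescaling, 1082 with weights, 803 after rescaling, 775 after rescaling without DKO CD93+ replicate 3, and 112 to 382 with a library left out. The cause of these moves was not tested.

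The 5 IRF genes called in CD93- cells, all higher, became 8 with quantile normalization, where Irf3, Irf4 and Irf5 were called lower. Of the 10960 tested genes 1885 were then called higher and 2313 lower. With a library left out the IRF genes called numbered 3 to 6. They were 3 without DKO replicate 3, and 6 without CTL replicate 1, where Irf5 was called lower. In CD93+ cells the 0 called became 4 with quantile normalization and after rescaling. Under both settings Irf1 and Irf7 were higher and Irf4 and Irf5 lower. With quantile normalization 1106 of 11250 tested genes were called higher and 1128 lower. The IRF genes called were 2, Irf1 and Irf7, both higher, with weights and after rescaling without DKO replicate 3. They became 1 with the block and rescaling, and 0 to 2 with a library left out. For the difference the 0 called became 3 with quantile normalization, 1 after rescaling, with or without that library, and stayed 0 with any library left out.

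Whether the replicate numbers pair the samples is not known. Deviations from the group mean correlated between same-numbered DKO and CTL libraries at 0.02, -0.11 and -0.09 in CD93- and 0.17, -0.11 and -0.14 in CD93+ cells. Libraries of different number correlated at -0.04 to 0.12 in CD93- and -0.31 to 0.34 in CD93+ cells. Such deviations sum to 0 within a group of 3, so these values cannot settle it. With the block, IRF genes called in CD93- cells numbered 5 as before. With the block and rescaling, Irf7, Irf4 and Irf5 in CD93+ cells, Irf3 in CD93- cells (adjusted p = 0.0599) and the Irf8 difference (adjusted p = 0.101) lost their rescaled calls.

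Directions turned as follows. In CD93- cells Irf3 was at -0.223 with quantile normalization, -0.187 after rescaling with or without the block, -0.0919 with weights and -0.116 to 0.112 with a library left out, and Irf4 at -0.183, -0.147, -0.0504 and -0.0448 to 0.142 under the same settings. In CD93+ cells Irf2 was at 0.00841 with weights and -0.431 to 0.0490 with a library left out. Irf8 there was at 0.0671 after rescaling with or without the block, 0.202 with weights, 0.0219 with the sex covariate and rescaling, 0.150 after rescaling without DKO replicate 3, and -0.404 to 0.209 with a library left out. Irf9 was at 0.142 with quantile normalization, 0.160 after rescaling with or without the block, 0.317 with weights, 0.0650 with the sex covariate and rescaling, 0.238 after rescaling without DKO replicate 3, and -0.271 to 0.297 with a library left out. Oasl2, called higher in CD93+ cells with the authors' scaling, was at -0.182 there with the sex covariate. Tet2 in CD93+ cells was at 0.0105 with the sex covariate and rescaling. In the difference Irf3 was at 0.0345 with quantile normalization, and Irf5 at 0.216 with quantile normalization, 0.144 after rescaling with or without the block, 0.153 with weights, 0.210 after rescaling without DKO CD93+ replicate 3 and -0.534 to 0.0463 with a library left out.

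All 8 within-library ratios kept their direction in 56 recomputations with a pseudocount of 1 or a library left out, and with a library left out the smallest exact p was 0.2. Depth cannot be judged from FPKM, and the CD93+ values rest on 1 library with a low scale and on partly confounded sex.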
